A study of Mus musculus with 16 samples.

Results

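Myelin is the lipid-rich membrane that oligodendrocytes wrap around axons in the brain, and the 9 genes described here, Mbp, Mog, Mag, Mobp, Cnp, Cldn11, Mal, Ermn and Ugt8a, encode its proteins and the enzyme that makes its main galactolipid. They were taken by symbol from the deposited count table of 22058 genes, where all 9 were found and passed the filter on low counts. The study counted 3' ends of polyadenylated RNA in 16 libraries from 4 untreated male C57BL/6 wildtype mice, whose age the labels do not give. Each animal, numbered 2, 3, 4 and 5, gave 1 library of CD11b+ microglia, 1 of EAAT2+ astrocytes, 1 of Thy1+ neurons and 1 called input. The sorted groups were live cells of dissociated whole brain, and their gates left out cells stained for O1, an antigen of oligodendrocytes, or for CD31, an antigen of endothelium. The labels call the input pooled and leave its sampling step unstated, so that it is not known here whether O1+ cells were kept in it. The comparison asks how far myelin transcripts fell in each sorted group against the input. In such bulk libraries, fewer oligodendrocytes and less myelin RNA per cell cannot be told apart.

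Oligodendrocytes differentiate from precursors that carry Pdgfra and Cspg4, and the transcription factors Sox10, Olig2 and Myrf drive this step and the transcription of myelin genes. O1 is a monoclonal antibody that binds galactocerebroside on the surface of maturing and mature oligodendrocytes. Galactocerebroside is made from ceramide by the enzyme that Ugt8a encodes, so that Ugt8a is the member closest to the antigen used by the gate.

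Because Sox10 and Myrf are known regulators of myelin genes, the bases before the RefSeq transcription start on GRCm38.p6 are shown for 3 members: Cnp, which fell least of the 9 in astrocytes, Mag, which fell furthest there, and Ugt8a as the enzyme of the O1 antigen. RefSeq windows were at hand for 8 members (Cnp, Mag, Mobp, Mog, Ermn, Cldn11, Mal and Ugt8a). Capitals mark matches on either strand to ACAAAG or ACAATG, cores bound by Sox factors, to CTGGNAC, a core bound by Myrf, or to the E-box CAGCTG. The windows are chr11:100574689-100574903 on the plus strand for Cnp, chr7:30914923-30915172 on the minus strand for Mag and chr3:125938653-125938902 on the minus strand for Ugt8a. The 35 bases of the Cnp window that lie inside its annotated gene are left out.
Cnp: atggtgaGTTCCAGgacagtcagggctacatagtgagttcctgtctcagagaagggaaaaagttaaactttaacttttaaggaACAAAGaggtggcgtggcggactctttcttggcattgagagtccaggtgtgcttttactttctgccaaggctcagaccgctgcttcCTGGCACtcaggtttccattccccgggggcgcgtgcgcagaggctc
Mag: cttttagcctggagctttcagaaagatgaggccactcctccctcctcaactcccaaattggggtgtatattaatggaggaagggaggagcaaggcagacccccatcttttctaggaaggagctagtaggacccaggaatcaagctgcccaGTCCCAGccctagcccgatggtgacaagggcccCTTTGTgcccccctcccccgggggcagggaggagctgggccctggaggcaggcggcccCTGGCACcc
Ugt8a: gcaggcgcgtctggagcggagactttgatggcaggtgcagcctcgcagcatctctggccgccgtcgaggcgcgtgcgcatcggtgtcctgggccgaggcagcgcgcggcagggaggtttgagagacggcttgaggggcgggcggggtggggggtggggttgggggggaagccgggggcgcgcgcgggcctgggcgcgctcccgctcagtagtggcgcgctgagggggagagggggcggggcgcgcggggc
In the 250 bases before a start, ACAAAG was found for 3 of the 8 genes (Cnp, Mag and Mobp) and in 16.5% of all 32851 windows of that length. CTGGNAC was also found for 3 (Cnp, Mag and Mog), against 16.1% of all windows, ACAATG for 1 (Ermn), against 10.7%, and CAGCTG for 0, against 13.0%. The Ugt8a window held no match. The shares of all windows count windows, while the numbers above count genes, and a gene can have more than 1 window. Counted as windows, there were 10 for the members, of which 4 held ACAAAG, 4 CTGGNAC, 1 ACAATG and 0 CAGCTG. A match describes letters only.

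Library totals ran from 116761 to 1413564 counts in the 12 sorted libraries and from 1702665 to 2811080 in the input. The defining markers of each sorted group were higher in that group than in the input. Summed microglia markers (11 genes) ran from 33430 to 55590 CPM (counts scaled to a common library total) in microglia and from 8105 to 9519 CPM in the input. Astrocyte markers (10 genes) ran from 27100 to 39630 CPM in astrocytes and from 6665 to 12640 CPM in the input, and neuron markers (10 genes) from 2611 to 4432 CPM in neurons and from 681 to 1016 CPM in the input. Markers of other groups were also present. In neurons, microglia markers ran from 2417 to 9247 CPM and astrocyte markers from 2451 to 7436 CPM. Their means there, 5714 and 5087 CPM, were above the 3279 CPM of the neuron markers. Gh-based counts, described below and capped at the observed count, came to 48.5%, 24.5%, 57.5% and 31.1% of all counts in neurons 2 to 5. Their part in the levels of these markers was not tested. Microglia markers ran from 2209 to 7299 CPM in astrocytes, and astrocyte markers from 1303 to 4163 CPM in microglia. Markers of T and NK cells (10 genes) summed to between 543 and 1572 CPM in neurons and to no more than 155 CPM in any other library. Endothelial markers (8 genes), whose cells the CD31 gate left out, summed to between 2938 and 3827 CPM in the input and to no more than 911 CPM in any sorted library.

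Scaled to CPM, myelin transcripts were lower in all 3 sorted groups, furthest in microglia and least in neurons. The 9 genes summed to 3323 ± 376 CPM in the input (SD, n = 4), 369 ± 163 CPM in microglia, 735 ± 308 CPM in astrocytes and 1190 ± 331 CPM in neurons, or 11.1%, 22.1% and 35.8% of the input mean. As raw counts the sums were closer, at 1007 over the 4 microglia libraries, 885 over the astrocytes and 1122 over the neurons. Library totals differed between these groups, and the part of depth in the order by CPM was not tested. For each of the 9, every library of each sorted group lay below every input library. Over all 9091 genes tested, groups separated in this direction for 30.8% in microglia, 23.2% in astrocytes and 19% in neurons. With edgeR's quasi-likelihood test and Benjamini-Hochberg adjustment over all genes, 9 of 9 members fell in microglia, where 29.8% of all genes tested were called lower. In astrocytes 9 of 9 fell, against 19.1% of all genes, and in neurons 8 of 9, against 13.7%. The median log2 fold change of the members was -3.63 in microglia, -2.80 in astrocytes and -1.76 in neurons, while that of all genes tested was -0.04, -0.09 and -0.11. The 3 comparisons share the input libraries. Mbp in neurons did not pass the threshold, and Cnp in astrocytes was the smallest fall that did.

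**Figure D1:**
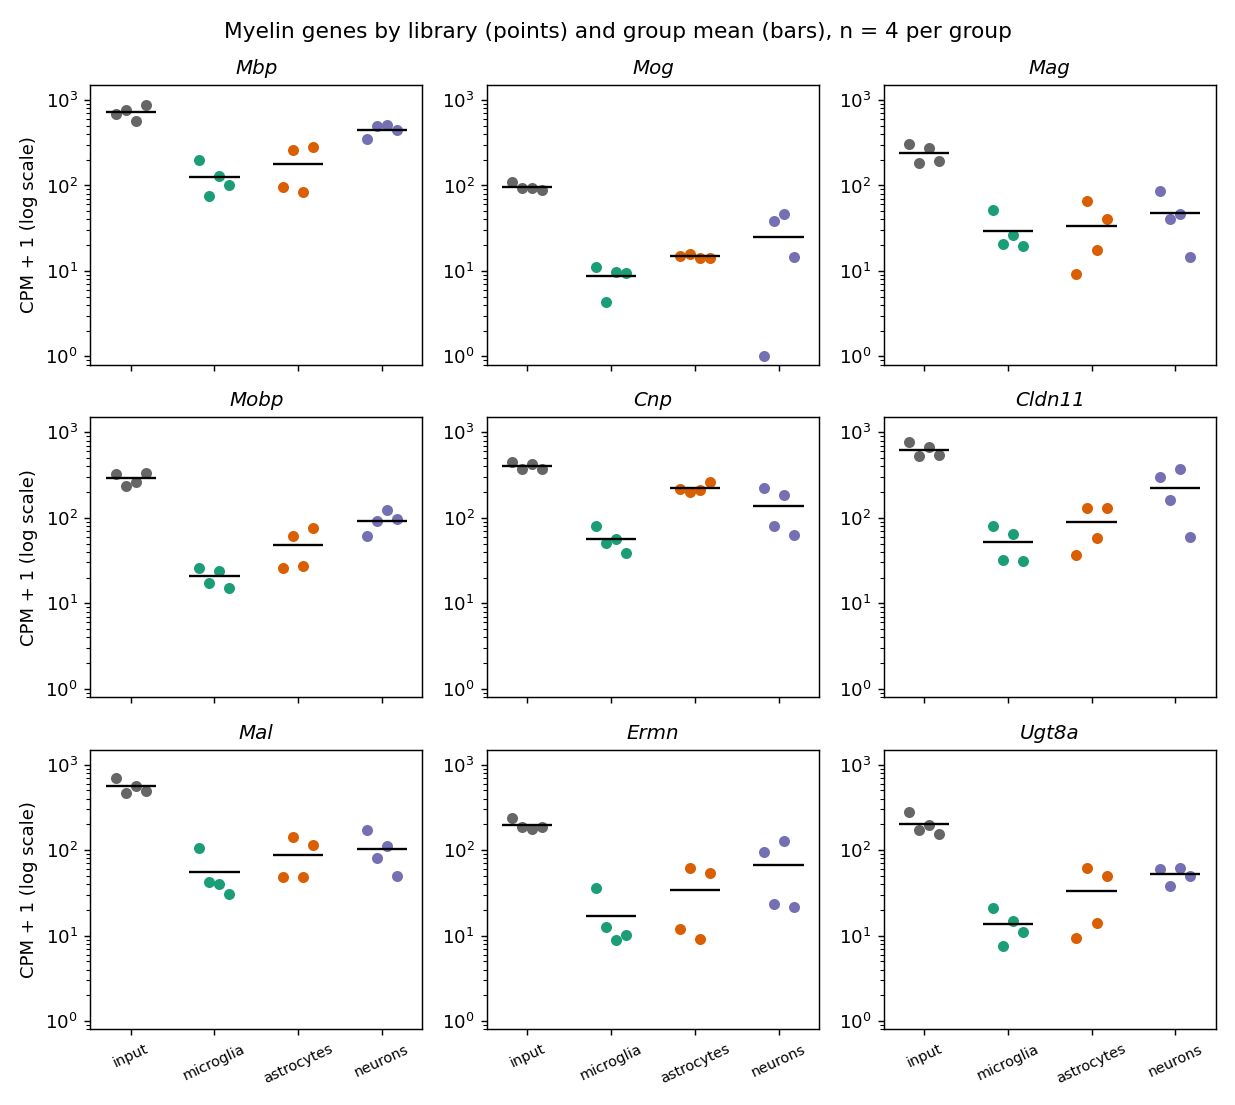
CPM + 1 on a log scale (vertical) of the 9 myelin genes in the 4 libraries of each group (points; horizontal bars are group means). Every sorted library lies below the 4 input libraries for each gene, and the sorted groups overlap each other for most genes.

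Mbp and Mobp encode basic proteins that lie between the cytoplasmic faces of compact myelin. Mbp lies on chromosome 18 from 82475146 to 82585637 of GRCm38, the build of all gene coordinates given here, and its 16 annotated transcripts are not separated by counts per gene. Golli transcripts of the same gene are known from neurons and lymphocytes. Mbp stood at 693, 766, 562 and 867 CPM in the input of animals 2, 3, 4 and 5. In the same order, used for every gene, it stood at 195, 74.03, 128 and 99.4 CPM in microglia and at 94.01, 259.8, 83.6 and 279 CPM in astrocytes. In neurons it stood at 350.2, 500.2, 503 and 447 CPM. The neuron libraries lay above all microglia and astrocyte libraries and below the lowest input library. The log2 fold change against the input was -2.60 ± 0.34 in microglia, -2.07 ± 0.34 in astrocytes and -0.67 ± 0.32 in neurons (adjusted p = 1.77e-07, 1.69e-05 and 0.117, edgeR). In neurons it missed the threshold under all 19 alternatives tried, which ranged from -1.42 to -0.51. Mbp stood in neurons at between 50.5% and 89.5% of the input of the same animal.

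Mobp lies on chromosome 9 from 120149707 to 120181484 and stood at 322, 237, 261 and 330.4 CPM in the input. It stood at 25.1, 16.5, 22.6 and 14.2 CPM in microglia, at 24.9, 59.95, 26.2 and 75.3 CPM in astrocytes and at 59.8, 90.03, 121 and 96.3 CPM in neurons. Microglia and neurons did not overlap, and astrocytes 3 and 5 reached the range of the neurons. Against the input, the log2 fold change of Mobp was -3.95 ± 0.33 in microglia, -2.76 ± 0.32 in astrocytes and -1.62 ± 0.30 in neurons (adjusted p = 2.94e-10, 1.89e-07 and 0.000185, edgeR).

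Mog and Mag encode immunoglobulin-like proteins of the myelin surface, Mog on the outermost layer and Mag on the innermost, next to the axon. Mog lies on chromosome 17 from 37010743 to 37023398 and had between 0 and 15 counts in any sorted library. It stood at 110.1, 93.3, 91.97 and 86.7 CPM in the input and at 10.02, 3.29, 8.84 and 8.52 CPM in microglia. In astrocytes it stood at 13.8, 14.99, 13.1 and 13.3 CPM, and in neurons at 0, 37.5, 45.3 and 13.8 CPM. The astrocyte libraries were close to each other, while the neuron libraries spread widely, and the 0 in neurons 2 allows a level of up to 25.6 CPM (3 counts; counting error only). The log2 fold change against the input was -3.63 ± 0.41 in microglia, -2.80 ± 0.42 in astrocytes and -1.82 ± 0.40 in neurons (adjusted p = 1.65e-08, 6.06e-06 and 0.00101, edgeR).

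Mag lies on chromosome 7 from 30899176 to 30914873 and stood at 306, 179.9, 276 and 190 CPM in the input. It stood at 50.1, 19.7, 25.5 and 18.5 CPM in microglia, at 8.295, 64.9, 16.4 and 39.9 CPM in astrocytes and at 85.4, 40.01, 45.3 and 13.8 CPM in neurons. The 3 sorted groups overlapped. Against the input, the log2 fold change of Mag was -3.26 ± 0.40 in microglia, -3.10 ± 0.43 in astrocytes and -2.54 ± 0.42 in neurons (adjusted p = 7.06e-08, 1.76e-06 and 4.91e-05, edgeR). Of the 9 members, Mag had the smallest range of log2 fold change over the 3 groups.

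Cldn11 and Mal encode membrane-spanning proteins of the sheath. Cldn11 is the claudin of the tight junctions between myelin lamellae, and Mal is a proteolipid of membrane trafficking that is also known from human T cells. Cldn11 lies on chromosome 3 from 31149920 to 31164324 and stood at 775, 533, 664 and 537 CPM in the input and at 80.2, 31.3, 62.9 and 29.8 CPM in microglia. In astrocytes it stood at 35.95, 129.9, 57.4 and 129 CPM, and in neurons at 299, 160.1, 367 and 58.4 CPM. Neurons 5 was low among the neurons and lay within the range of the other sorted groups. The log2 fold change against the input was -3.73 ± 0.42 in microglia, -2.93 ± 0.41 in astrocytes and -1.56 ± 0.39 in neurons (adjusted p = 1.99e-08, 2.51e-06 and 0.00335, edgeR).

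Mal lies on chromosome 2 from 127633226 to 127656695 and stood at 693, 466, 562 and 496 CPM in the input. It stood at 105, 41.1, 39.3 and 29.8 CPM in microglia, at 47.01, 139.9, 47.5 and 115 CPM in astrocytes and at 171, 80.03, 111 and 48.1 CPM in neurons. Microglia 2 was high among the microglia, and the 3 sorted groups overlapped. Against the input, the log2 fold change of Mal was -3.58 ± 0.38 in microglia, -2.77 ± 0.37 in astrocytes and -2.55 ± 0.37 in neurons (adjusted p = 6.4e-09, 1.15e-06 and 8.29e-06, edgeR). The neuron libraries carried the T and NK cell markers given above, and their part in the level of Mal there, between 9.71% and 24.6% of the input of the same animal, was not tested.

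Cnp and Ermn encode proteins of the oligodendrocyte cytoplasm, Cnp the phosphodiesterase of non-compact myelin and Ermn the actin-binding ermin of mature cells. Cnp lies on chromosome 11 from 100574904 to 100591729 and stood at 449, 366, 424 and 372 CPM in the input and at 80.2, 49.4, 55.98 and 37.6 CPM in microglia. In astrocytes it stood at 216, 199.8, 213 and 261 CPM, and in neurons at 222, 80.03, 186 and 61.9 CPM. The astrocyte libraries were close to each other and lay above all microglia libraries, and the neurons fell into a low and a high pair. The log2 fold change against the input was -2.94 ± 0.32 in microglia, -0.86 ± 0.29 in astrocytes and -1.66 ± 0.31 in neurons (adjusted p = 8.1e-09, 0.0191 and 0.000211, edgeR). In astrocytes Cnp stood at between 48.1% and 70.3% of the input of the same animal. The call in astrocytes ended without astrocytes 2 (-0.78), astrocytes 4 (-0.72) or input 2 (-0.82), without astrocytes 3 and 5 (-0.78), and with the Gh-based subtraction described below (-1.56). Dnajc7 runs on the opposite strand over the end of Cnp, and whether the counting used strand is not given in the sources used here. Dnajc7 stood at 44.2 ± 2.72 CPM in the input, 230 ± 112 CPM in microglia, 122 ± 32.0 CPM in astrocytes and 220 ± 55.1 CPM in neurons (SD, n = 4), and its part in the Cnp values was not tested.

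Ermn lies on chromosome 2 from 58045113 to 58052864 and stood at 237, 183, 174 and 186 CPM in the input and at 35.1, 11.5, 7.86 and 9.23 CPM in microglia. In astrocytes it stood at 11.1, 59.95, 8.19 and 53.2 CPM, and in neurons at 93.97, 22.5, 126 and 20.6 CPM. Within the astrocytes and within the neurons the libraries fell into a low and a high pair, the high pair being the shallower libraries in each case. Against the input, the log2 fold change of Ermn was -4.04 ± 0.51 in microglia, -2.84 ± 0.50 in astrocytes and -1.76 ± 0.46 in neurons (adjusted p = 1.07e-07, 4.61e-05 and 0.00576, edgeR), and the call in neurons ended with DESeq2 (-1.50, adjusted p = 0.07). Galnt5, which overlaps the end of Ermn on the other strand, had 0 counts in all 16 libraries.

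Ugt8a, which encodes the galactosyltransferase of galactocerebroside, lies on chromosome 3 from 125865271 to 125938619 and stood at 281, 173, 194 and 153 CPM in the input. It stood at 20.04, 6.58, 13.8 and 9.94 CPM in microglia, at 8.295, 59.95, 13.1 and 48.7 CPM in astrocytes and at 59.8, 37.5, 60.4 and 48.1 CPM in neurons. The microglia libraries lay below all neuron libraries, and the astrocytes spanned most of both ranges. Against the input, the log2 fold change of Ugt8a was -4.13 ± 0.41 in microglia, -2.87 ± 0.40 in astrocytes and -2.02 ± 0.38 in neurons (adjusted p = 2.17e-09, 2.1e-06 and 0.000234, edgeR). The enzyme of the O1 antigen thus had the lowest fitted value of the 9 in microglia and the third lowest in astrocytes and neurons. No ratio between members passed the adjusted test described below, which no ratio could have passed alone.

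**Figure D2:**
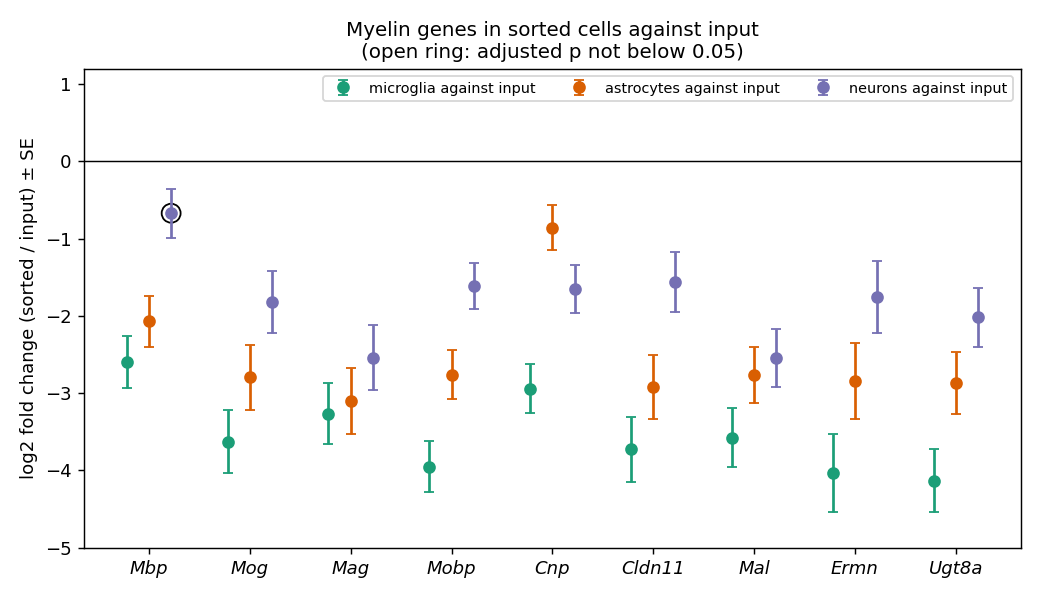
Log2 fold change of each sorted group against input (points, ± SE derived from edgeR's F statistic) for the 9 myelin genes. All values lie below 0; the open ring marks Mbp in neurons (-0.67), which did not pass the adjusted threshold of 0.05.

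Between the sorted groups the fitted levels rose from microglia over astrocytes to neurons for 8 of the 9 members, and from microglia over neurons to astrocytes for Cnp, but many neighbours did not differ beyond their spread. Against neurons, 8 of 9 members were lower in microglia, where 24.4% of all genes were called lower. The log2 differences included Mobp at -2.33 ± 0.36, Ermn at -2.28 ± 0.59, Cldn11 at -2.17 ± 0.43, Ugt8a at -2.11 ± 0.48 and Mbp at -1.93 ± 0.34, and Mag did not pass (-0.72 ± 0.49, adjusted p = 0.241, edgeR). The call of Mal (-1.03 ± 0.41, adjusted p = 0.0405) ended without any 1 of microglia 3, 4 or 5 or neurons 2, 3 or 4, with values from -1.10 to -0.74. It also ended with library totals (-1.02), only the groups compared (-1.16), DESeq2 (-1.02), limma (-0.83) and without animal 5 (-1.05). That of Mog (-1.81 ± 0.52) ended without neurons 3 (-1.45), after thinning all libraries to 116761 counts (-0.50, adjusted p = 0.624), with limma on the authors' normalized signal (-0.60, adjusted p = 0.579) and with the Gh-based subtraction (-1.92, adjusted p = 0.155).

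Against astrocytes, 3 of 9 members were lower in microglia, where 26.1% of all genes were. They were Cnp at -2.08 ± 0.32, Mobp at -1.19 ± 0.38 and Ugt8a at -1.26 ± 0.51 (log2, adjusted p = 2.13e-06, 0.0106 and 0.0394, edgeR). Ugt8a was not called with animal as a replicate block (-1.25, adjusted p = 0.0511), and leaving out any 1 of microglia 3, 4 or 5 or astrocytes 3 or 5 also ended its call (from -1.36 to -0.75), as did library totals (-1.10), limma (-0.96) and leaving out animal 5 (-0.83). The call of Mobp ended without microglia 5 (-1.01) or astrocytes 5 (-0.82) or without animal 5 (-0.69), and after thinning Mobp stood at -0.20 (adjusted p = 0.809, edgeR). Without astrocytes 3 and 5, the shallowest of their group, Mobp stood at -0.45 and Ugt8a at 0.03, and 1 member was called.

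Astrocytes were lower than neurons for 3 of 9 members, against 13.7% of all genes: Mbp at -1.40 ± 0.34, Cldn11 at -1.36 ± 0.43 and Mobp at -1.14 ± 0.36 (log2, adjusted p = 0.00196, 0.0161 and 0.0152, edgeR). Without astrocytes 3 and 5 this comparison called 6 members, and it called 1 without astrocytes 2 or without astrocytes 4. The call of Mobp also ended with only the groups compared (-1.20), and that of Cldn11 without neurons 4 (-0.95), after thinning (-1.12, adjusted p = 0.0716) and with limma (-1.14, adjusted p = 0.085). Cnp had a log2 difference of 0.80 ± 0.32 between astrocytes and neurons (adjusted p = 0.0601, edgeR), where 14.8% of all genes were called higher in astrocytes. It was called higher with animal as a replicate block (0.84, adjusted p = 0.0445) and without neurons 2 (1.09) or neurons 4 (1.06).

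The myelin counts of the sorted libraries changed less than their depth. The 9 genes together had between 120 and 419 counts in each of the 12 sorted libraries, a 3.49-fold range, while the totals of these libraries ranged 12.1-fold. Mal ran from 14 to 42 counts and Ugt8a from 3 to 15. Within the sorted groups, the slope of log2 count on log2 total was 0.96 as the median of 8662 genes, where a slope of 1 means counts in proportion to depth. It was -0.14 for Ermn, 0.23 for Mag, 0.24 for Mal, 0.38 for Cldn11 and for Ugt8a, 0.56 for Cnp, 0.61 for Mbp and 0.68 for Mobp, and 1.15 for Mog. Microglia 2, the shallowest microglia library with 191236 counts, was the highest of its group in CPM for 9 of the 9 members. The highest astrocyte library was number 3 or 5 for each member, the shallower pair. With all libraries thinned to 116761 counts, the calls between sorted groups of Mobp (microglia against astrocytes), Mog (microglia against neurons) and Cldn11 (astrocytes against neurons) ended, with the values given above.

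**Figure D3:**
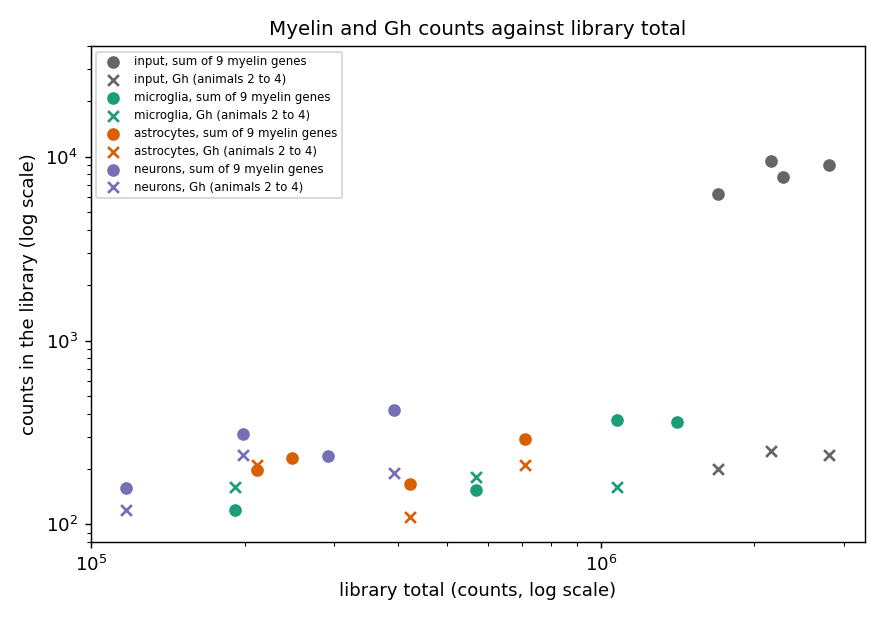
Summed counts of the 9 myelin genes (points) and counts of Gh in animals 2 to 4 (crosses) against the total of each library, both axes on a log scale. In the 12 sorted libraries the myelin sum stays between 120 and 419 counts while the totals range from 116761 to 1413564.

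Gh, which encodes growth hormone of the pituitary, gave a scale for such low counts. It had 19000 counts in neurons 5, 5600 in input 5, 530 in microglia 5 and 250 in astrocytes 5. Each of the 12 libraries of the other animals had between 110 and 250. The counts of these 12 were between 0.399% and 0.912% of the Gh counts in the other 15 libraries, all of which were sequenced as 1 pool. Libraries of animal 5 were given the median, 0.71%, although microglia 5 had more Gh counts than any of the 12. The percentage of each library was then taken of the counts of the members in the other 15 libraries. This came to 893 counts over the microglia libraries, 933 over the astrocytes and 957 over the neurons, against 1007, 885 and 1122 observed. For the 9 members in the 12 sorted libraries, 62 of the counts had a 95% Poisson interval that held this Gh-based count, 30 were below it and 16 above it. The intervals cover counting error only. That transcripts passed between libraries of the pool, and that Gh did so like other genes, was not tested, and for Cldn11 in astrocytes all 4 counts lay below the Gh-based count.

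Mbp in neurons and Cnp in astrocytes stood above this scale in 3 of 4 libraries each, the interval of the count lying above the Gh-based count. Mbp and Cnp in microglia and Cldn11 in neurons did so in 2 of 4. Mag and Cldn11 in microglia and Mog and Mobp in neurons did so in 1 of 4. Mbp had 41, 200, 100 and 130 counts in neurons against Gh-based counts of 35.7, 55.5, 71.1 and 57.5. Cnp had 78, 40, 130 and 59 counts in astrocytes against 17.7, 34.2, 33.5 and 31.6. With the Gh-based count subtracted for every gene, Mbp in neurons stood at 39.6% of the input mean and Cnp in astrocytes at 30.5%. In microglia, Mbp then stood at 4.53%, Cnp at 2.7% and the other 7 members at no more than 1.74%. In astrocytes the 8 members other than Cnp stood at no more than 1.11%. In neurons Ermn stood at 13.2%, resting on 9 counts left, and Cldn11 at 13%, resting on 42, while Mag and Mal had no counts left. The interval lay above the Gh-based count in 0 of 4 neuron libraries for Ermn and in 2 of 4 for Cldn11. Negative differences were set to 0, so that scatter above the Gh-based count was kept and scatter below it was not. The Gh-based count lay above the interval for 30 member counts and below it for 16, in astrocytes for 13 and 3. Whether the subtraction removed too much was not tested. CPM after subtraction use the totals left. In neurons 4, which lost 57.5% of its counts, the 29 Mbp counts left stood at 344.5 CPM, against 503 CPM for the 100 observed. All percentages after subtraction carry these limits. The sum of the 9 stood at 1.76% of the input in microglia, 3.95% in astrocytes and 13.2% in neurons.

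**Figure D4:**
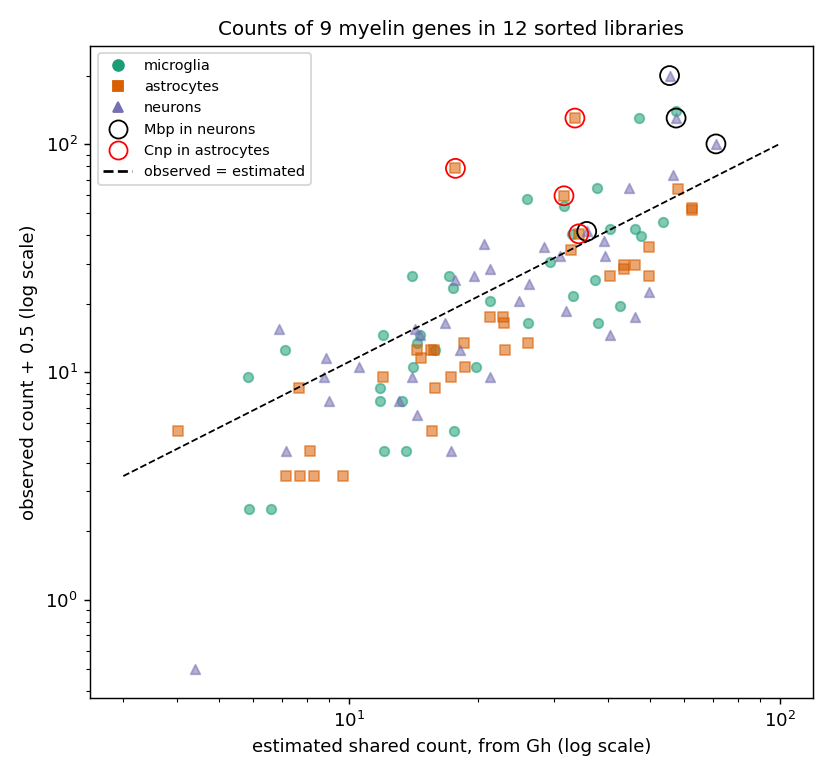
Observed count + 0.5 (vertical) against the Gh-based count (horizontal) for each of the 9 myelin genes in each of the 12 sorted libraries, both on a log scale; the dashed line marks equality. Rings mark Mbp in neurons and Cnp in astrocytes, which lie above the interval in 3 of 4 libraries each.

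Library scaling cancels, apart from the pseudocount, in the ratio of a pair of members, which asks whether they fell by different amounts. All 36 pairs were compared between each sorted group and the input by a two-sided exact permutation test on log2 ratios of CPM + 2, where 4 against 4 libraries allow no p below 0.0286. After Benjamini-Hochberg adjustment over the 3 groups, 0 ratios passed (smallest adjusted p = 0.119, exact permutation test), and 26 reached the unadjusted p of 0.0286. In astrocytes these were the 8 ratios of Cnp to each other member. The log2 ratio of Cnp to Ugt8a, for example, was 3.08 in astrocytes and 1.03 in the input. In neurons 4 of the 7 were ratios of Mbp, to Mog (higher than in the input by 1.96), Mal (1.86), Ugt8a (1.23) and Mobp (0.98). In microglia 5 of the 11 were ratios of Mbp, from 0.88 higher than in the input for Mal to 1.25 for Ugt8a.

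Other oligodendrocyte genes mostly fell with the members. Of 49 further genes of myelin membranes, cytoskeleton, metabolism and transcription factors, 38 passed the filter on low counts and were tested. In microglia 34 fell and 1 rose (median log2 fold change -3.21), where 29.8% of all genes were called lower and 24.1% higher. In astrocytes 26 fell and 3 rose (-1.92), against 19.1% of all genes lower and 16.3% higher. In neurons 32 fell and 0 rose (-1.68), against 13.7% lower and 11.2% higher. These shares of all genes are the background for each list that follows. Tmem88b, a transmembrane protein gene, had log2 fold changes of -4.05 ± 0.35, -2.81 ± 0.34 and -1.98 ± 0.32 in microglia, astrocytes and neurons. Evi2a rose in microglia (1.55 ± 0.36), and Cmtm5 rose in astrocytes (1.17 ± 0.30). Trf, which encodes transferrin, and Tppp, a tubulin-binding protein, did not pass in microglia (-0.10 ± 0.28 and -0.42 ± 0.29).

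Transcription factors of the lineage had calls in both directions in astrocytes, against 19.1% of all genes lower and 16.3% higher there. Of 8 transcription factors listed, 6 were tested, and 6 fell in microglia (29.8% of all genes) and 5 in neurons (13.7%). In astrocytes Sox10 (-4.49 ± 0.66) and Myrf (-3.77 ± 0.68) fell, while Olig2 (1.51 ± 0.33) and Sox8 (1.47 ± 0.38) rose, and Olig1 (0.66 ± 0.30) and Nkx6-2 (0.80 ± 0.34) did not pass. Of 12 precursor genes, 7 were tested, and 7 fell in microglia (29.8% of all genes) and 3 in neurons (13.7%). In astrocytes 3 fell (19.1%) and 3 rose (16.3%). Those that fell included Pdgfra, the growth factor receptor of precursors (-4.17 ± 0.75). The 3 that rose there were Cspg5 (3.12 ± 0.41), Cacng4 (1.12 ± 0.34) and the receptor phosphatase Ptprz1 (0.99 ± 0.34). Of 6 genes of differentiating oligodendrocytes, 5 were tested, with 3 lower and 1 higher in microglia, 2 and 1 in astrocytes and 2 and 0 in neurons, few genes to set against the shares of all genes. Enpp6, a marker of newly formed oligodendrocytes, fell in all 3 groups (-3.04 ± 0.57, -3.57 ± 0.75 and -3.14 ± 0.77). Its means of 4.43 ± 8.86 CPM in astrocytes and 6.15 ± 7.57 CPM in neurons (SD, n = 4) rest on few counts. They lay below the level of 3 counts in each library of these groups, so that the size of these falls is uncertain.

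Of 10 genes of galactolipid synthesis and breakdown, 8 were tested, with 1 lower and 2 higher in microglia, 2 and 2 in astrocytes and 6 and 0 in neurons. All genes were called lower and higher in 29.8% and 24.1% in microglia and in 19.1% and 16.3% in astrocytes, so that the counts of the list in these groups are not a result about it, while 13.7% were called lower in neurons. Fa2h, which hydroxylates fatty acids of myelin galactolipids, had log2 fold changes of -2.75 ± 0.45, -2.91 ± 0.53 and -2.003 ± 0.50 in microglia, astrocytes and neurons. Psap, the precursor of the saposins that serve lysosomal breakdown, rose in microglia (0.89 ± 0.28) and in astrocytes (0.73 ± 0.28) and fell in neurons (-0.91 ± 0.28). Cers2, a ceramide synthase, passed in none of the 3 (0.51 ± 0.23, 0.19 ± 0.24 and -0.59 ± 0.26). Of 6 genes of the paranode and axon-glia contact, 5 were tested, with 5 lower in microglia, 4 lower and 1 higher in astrocytes and 1 lower in neurons, against 29.8%, 19.1% and 13.7% of all genes lower. Among them Cntn2, an adhesion protein, fell in microglia (-4.04 ± 0.45) and astrocytes (-2.31 ± 0.43) and did not pass in neurons (-0.90 ± 0.38). Pmp22, the 1 gene tested of 4 known from peripheral myelin, rose in microglia (1.11 ± 0.25), fell in neurons (-1.26 ± 0.29) and did not pass in astrocytes (0.18 ± 0.26).

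The genes whose levels over the 16 libraries were most like the mean of the members are known from several cell types. Over log2 values of CPM + 2, Pearson's r was 0.982 for Ptgds, a prostaglandin synthase, 0.98 for the hemoglobin gene Hbb-bs, 0.978 for the endothelial receptor gene Flt1, 0.976 for Mgp, a matrix protein, and 0.976 for the apolipoprotein gene Apod. Flt1 averaged 1262 CPM in the input and 86.9, 217 and 231 CPM in microglia, astrocytes and neurons. Among the members, r with the mean of the other 8 was highest for Ugt8a (0.97) and lowest for Cnp (0.769) and Mog (0.712). These values describe 16 libraries that share 4 groups and their depth.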

How the data were processed

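Gene counts of 16 mouse brain libraries were used as deposited. Per the labels' protocols they come from QuantSeq 3' libraries with molecular identifiers, pooled and read as single ends. The authors deposited whole, unscaled counts, of which all 28936 of 100 or more hold 2 significant digits, a rounding error of up to 5%. The tools listed by the submitters' processing notes, without roles, are STAR, featureCounts (Subread 1.6.2) and edgeR, with build GRCm38.p6. The authors also deposited a normalized signal per gene, used in 1 alternative only. Genes were filtered with filterByExpr, scaled by TMM and fitted with edgeR 4.0.16 (R 4.3.3), with 1 mean per group over all 16 libraries (9091 genes, common dispersion 0.0733). P-values are two-sided and adjusted by Benjamini-Hochberg over all genes tested, with a threshold of 0.05. CPM use TMM-scaled totals. Errors are SE for log2 fold changes and SD for CPM, with 4 libraries of different animals per group. The SE was derived, as the size of the log2 fold change divided by the square root of edgeR's quasi-likelihood F statistic.

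The 9 members and all gene lists were chosen with earlier results of these data known. Named by rule are the members, genes among the 4 with the highest mean CPM of each list, the 5 genes most like the members, and Gh. Fa2h, Sox10, Myrf, Pdgfra, Dnajc7 and Galnt5 lie outside this rule and were chosen after their values were seen. Of the 22058 identifiers, 21950 are in GENCODE M21, where the members have the same coordinates. All groups come from the same 4 animals per the labels, which pairs the libraries; deviations of an animal's libraries from their group means correlated between -0.097 and 0.112 across genes. Alternatives were RLE scaling, library totals, no filter, only the groups compared, DESeq2 1.42.0, an animal block, the Gh-based subtraction (for animal 5 with the median percentage of the other 12 libraries, 0.71%), thinning to 116761 counts, limma 3.58.1 on log2(signal + 1), and leaving out libraries. The computations were tested on simulated data.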

Additional observations from a re-analysis of the deposited data

Results flagged for a closer look

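Among the 36 sets of 4 values (9 members in 4 groups), 2 held a library whose gap to the others exceeded 0.829 of the range of the group, Dixon's criterion, which chance meets in about 1 of 20 sets. Mal stood at 105.2 CPM in microglia 2, where the other microglia libraries stood between 29.8 and 41.1 CPM. Ermn stood at 35.1 CPM in the same library, where the others stood between 7.86 and 11.5 CPM. Microglia 2 is the shallowest library of its group, with 191236 counts, and these values rest on 21 and 7 counts. The part of depth in them was not tested.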

How the results depend on the processing

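Against the input, the members kept their direction under every alternative run. In microglia all 169 values also kept their call, in astrocytes 159 did and 5 lost it (Cnp, given above), and in neurons 167 kept their side of the threshold and 1 lost its call (Ermn). After the Gh-based subtraction, 30 values had no fold because a group held 3 counts or fewer. With animal as a replicate block, the members called numbered 9, 9 and 8 against the input, and 2 (microglia against astrocytes), 8 (microglia against neurons) and 4 (astrocytes against neurons); no call of a member changed beyond those of Ugt8a and Cnp given above. Counts between sorted groups moved more. Microglia against neurons called 5 members with only the groups compared, where Mal lost its call and Ermn and Mog had no value. After subtraction it called 4. Astrocytes against neurons called 5 after subtraction and 6 without astrocytes 3 and 5. Microglia against astrocytes called 1 without animal 5 and 1 without astrocytes 3 and 5. The last alternatives, without animal 5 and without astrocytes 3 and 5, were chosen after seeing the data. Leaving out 1 library gave 9 to 9, 8 to 9 and 8 to 8 members against the input, 1 to 5 for microglia against astrocytes, 6 to 8 for microglia against neurons and 1 to 4 for astrocytes against neurons.

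Signs turned only between sorted groups. For microglia against astrocytes, Mag (main value -0.16) stood at 0.006 with library totals, 0.139 with limma, 0.2 without animal 5, 0.914 without astrocytes 3 and 5, and from -0.445 to 0.4 with 1 library left out; Mbp at 2.734 after subtraction and 0.451 without astrocytes 3 and 5; Mog at 0.192 after thinning; and Ermn at 0.338 and Ugt8a at 0.034 without astrocytes 3 and 5. For microglia against neurons, Cnp stood at 0.336 after subtraction. For astrocytes against neurons, Mog stood at 0.231 with limma, and Mal between -0.529 and 0.061 with 1 library left out. The causes were not tested.

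All genes called numbered 4902, 3214 and 2264 against the input (microglia, astrocytes, neurons). They numbered 1775, 1127 and 744 after thinning, which left 3839 genes to test, 3119 in microglia after subtraction and 1417 in neurons without animal 5. Thinning gave 1897 for microglia against astrocytes, 1712 for microglia against neurons and 1056 for astrocytes against neurons, and fitting only the groups compared gave 2387 and 1392 for the last 2. With 1 library left out they ranged from 4252 to 5680, from 2296 to 3445 and from 1550 to 2415 against the input. The share of calls that were lower was 55.3%, 54% and 54.9% with TMM, 52.6%, 47.2% and 41.5% with RLE and 60.9%, 72.8% and 65.1% with library totals, which moved the median of all genes to -0.17, -0.41 and -0.25. Low counts of the members in the sorted libraries, from 0 to 200, limit what can be told between sorted groups. Ratios of members allow no leave-one-out test, since 3 against 4 libraries give no p below 0.0571.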
